A study of Mus musculus with 12 samples.

Results

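Cytochrome P450 family 2 (Cyp2) was examined in the livers of mice that over-express the microRNA gene Mir483. Members were all protein-coding genes whose symbol is Cyp2, a subfamily letter and a number, which gave 48 of the 55401 genes in the table. Their expression was compared between 6 iTgMir483 livers and 6 Control livers, all from C57BL/6J females aged 15 weeks, with 1 library per mouse. The iTgMir483 mice carry a Mir483 transgene inserted at the Rosa26 locus under a Tet-off system, so that it is transcribed unless doxycycline is given. Doxycycline had been given in pregnancy, because early expression is lethal, and expression was then kept on after birth. A CMV-Cre, active in all tissues from soon after fertilization, had been used to remove the selection cassette, so no driver confined to hepatocytes was used. The labels call the other group control, and which alleles of the cross those mice carry is not given in the sources used here. Levels are given as CPM, the usual depth-scaled read count, after scaling of the library sizes. A gene is called changed when the adjusted p (edgeR's quasi-likelihood test, Benjamini-Hochberg over all genes tested) is under 0.05 and the fold change over 1.5.

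Family 2 is the largest cytochrome P450 family of the mouse, and its members are haem enzymes of the endoplasmic reticulum that oxidize drugs, steroids, bile acids, retinoids and fatty acids. They take their electrons from P450 oxidoreductase (Por). In liver they are made mainly by hepatocytes, many of them near the central vein, and several are induced through the constitutive androstane receptor or follow the sex-specific secretion of growth hormone. Most lie in clusters of recent gene duplicates, which makes their transcripts alike.

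Mir483 was read first, because it checks the labels. It had 0 counts in each Control library and 373, 761, 442, 318, 697 and 618 counts in the iTgMir483 libraries, in the order of their numbers. Reads from this locus in a poly(A) library do not measure the mature microRNAs. Their sequences (RefSeq, GRCm38.p6) are shown because the complement of the seed was searched for in the family, with the seed, bases 2 to 8, in capitals.
miR-483-3p: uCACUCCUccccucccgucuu
miR-483-5p: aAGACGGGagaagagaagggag
The complement of the miR-483-3p seed, AGGAGTG, was found in the longest annotated 3′ untranslated region of 0 of the 34 tested members, against 1529 of 12103 tested genes (12.6%). The complement of the miR-483-5p seed, CCCGTCT, was found in 1 of the 34, Cyp2f2, against 396 genes (3.27%). Its site, with the match in capitals, starts at base 177 of a region of 263 bases.
Cyp2f2: aggtgaaataCCCGTCTtatacgcaca
These are matches of letters, and binding of either microRNA was not measured. A match is likelier in a longer region, and the shares were not adjusted for region length. They therefore do not show whether members have fewer sites than their lengths predict. Shorter seed matches and sites outside the 3′ untranslated region were not searched.

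Control libraries held 12244123 to 30431286 counts, and iTgMir483 libraries 12415140 to 15846175. Because several members are sex-biased, the sex labels were checked with genes chosen after their values were seen: Xist had at least 6536 counts in every library, and Ddx3y, Eif2s3y, Kdm5d and Uty had 0 in all 12. The hepatocyte markers found in the table, Alb, Apoa1, Ttr, Hnf4a and Serpina1a, were expressed in every library. Their sum ran from 108114 to 155081 CPM in controls and from 51014 to 124144 CPM in iTgMir483 livers, with 4 of 6 below every control and 0 of 5 genes changed. Most of this sum was Alb (means 111914 and 76071 CPM), and only Apoa1 had a higher mean in iTgMir483 livers (8943 and 10212 CPM). All 6 macrophage markers were higher in iTgMir483 livers (summed 253 to 362 against 395 to 1138 CPM), as were 3 of 5 bile duct markers (summed 20.9 to 46.1 against 60.7 to 89.1 CPM) and both neutrophil markers that could be tested, S100a8 and S100a9, while 0 of 5 endothelial and 0 of 5 stellate cell markers were called. Most of the bile duct sum was Spp1 (means 25.6 and 63.6 CPM), and Krt19 and Sox9 were not called. Of tissues next to liver or rich in Cyp2 enzymes, the 3 lung markers were at 0 in all libraries, as were Nphs1, Slc12a1 and Aqp2 of kidney, Lep of adipose tissue, Cpa1 of exocrine pancreas and Cdx2 of intestine. The highest summed levels were 0.146 CPM for kidney, 0.938 CPM for adipose tissue, 14.1 CPM for pancreas (mostly Cela1) and 211 CPM for intestine (mostly Fabp2 and Lgals4, not called). Each level below is a share of all RNA, so fewer cells of a type and less RNA per cell cannot be told apart, and the part of the other cell types in the results was not tested.

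The Control library numbered 1 stood apart within the family. It had 649 CPM of Cyp2d9 against 61.1 to 192 CPM in the other controls, 75.3 CPM of Cyp2b10 against 2.93 to 15.6, and 13.4 CPM of Cyp2b13 against 286 to 387. It also had the lowest control levels of Cyp2a4 (24.2 CPM) and Cyp2a22 (22.6 CPM). Cux2, a female-biased regulator, was at its lowest of the controls in this library (4.33 CPM, 6.43 to 44.6 in the others). It was nearly as low in Controls 5 and 6 (6.43 and 6.58 CPM). Bcl6, a male-biased repressor, was at its highest (59.7 CPM, 18.1 to 31.5 in the others). Sex-biased members did not all move the same way, since Cyp2b10, listed as female-biased, was highest here. Cyp2c40, also female-biased, was at 117 CPM, within the range of the other controls. The iTgMir483 library numbered 1 had the highest levels of its group for Cyp2b9, Cyp2c29, Cyp2c50, Cyp2c54 and Cyp2d9. Values without these libraries are given beside many of the calls and counts that change when they are left out.

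Of the 48 members, 34 were expressed enough to be tested, and 12 of them were called lower in iTgMir483 livers. That is 35.3% of the members tested, where 2.73% of all 13205 tested genes were called lower. None was called higher, where 8.41% of all tested genes were, and 11.1% were called in either direction. Only Cyp2a5 was higher at an unadjusted p under 0.05, and DESeq2 and limma-voom each called 0 members higher. The median log2 fold change was -0.47 over the 34 members and 0.0058 over all tested genes, and 26 of the 34 values were below 0. In 6 members every iTgMir483 library lay below every Control library (17.6% of those tested, where the background is 2.83%), and in 0 members every one lay above (background 5.09%). A further 4 members passed the adjusted p with a fold change under the threshold, namely Cyp2d22, Cyp2d26, Cyp2e1 and Cyp2j6, all lower. Cyp2d22 and Cyp2d26 kept an adjusted p under 0.05 when any single library was left out, and Cyp2e1 and Cyp2j6 did not. Leaving out both libraries numbered 1 gave 17 members lower and 1 higher, Cyp2b10.

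**Figure D1:**
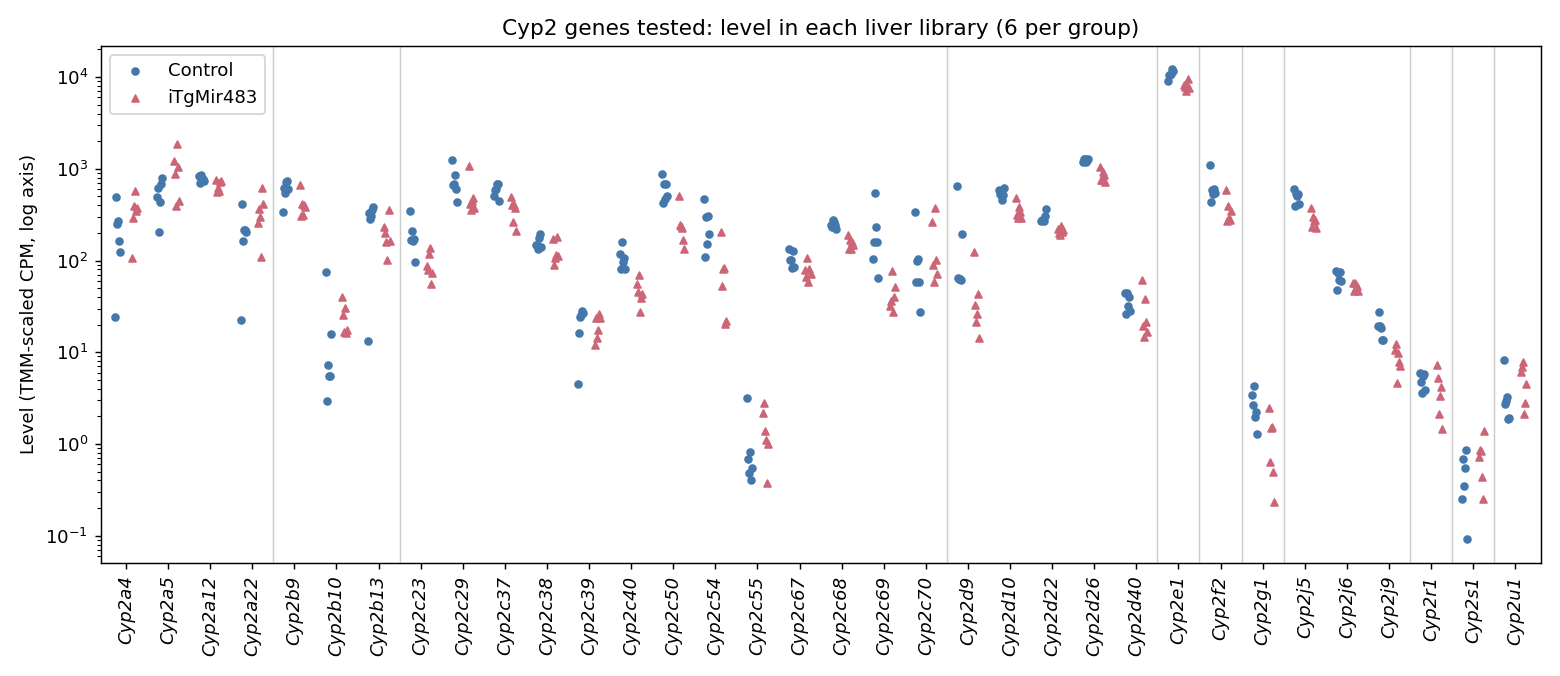
Level of each of the 34 tested Cyp2 genes in CPM (log axis), with 1 point per library for 6 Control (circles) and 6 iTgMir483 livers (triangles); vertical lines part the subfamilies. Cyp2e1 lies above all other members in both groups, and single points far from their group, such as Cyp2b13 at 13.4 CPM and Cyp2d9 at 649 CPM, belong to the Control library numbered 1.

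**Figure D2:**
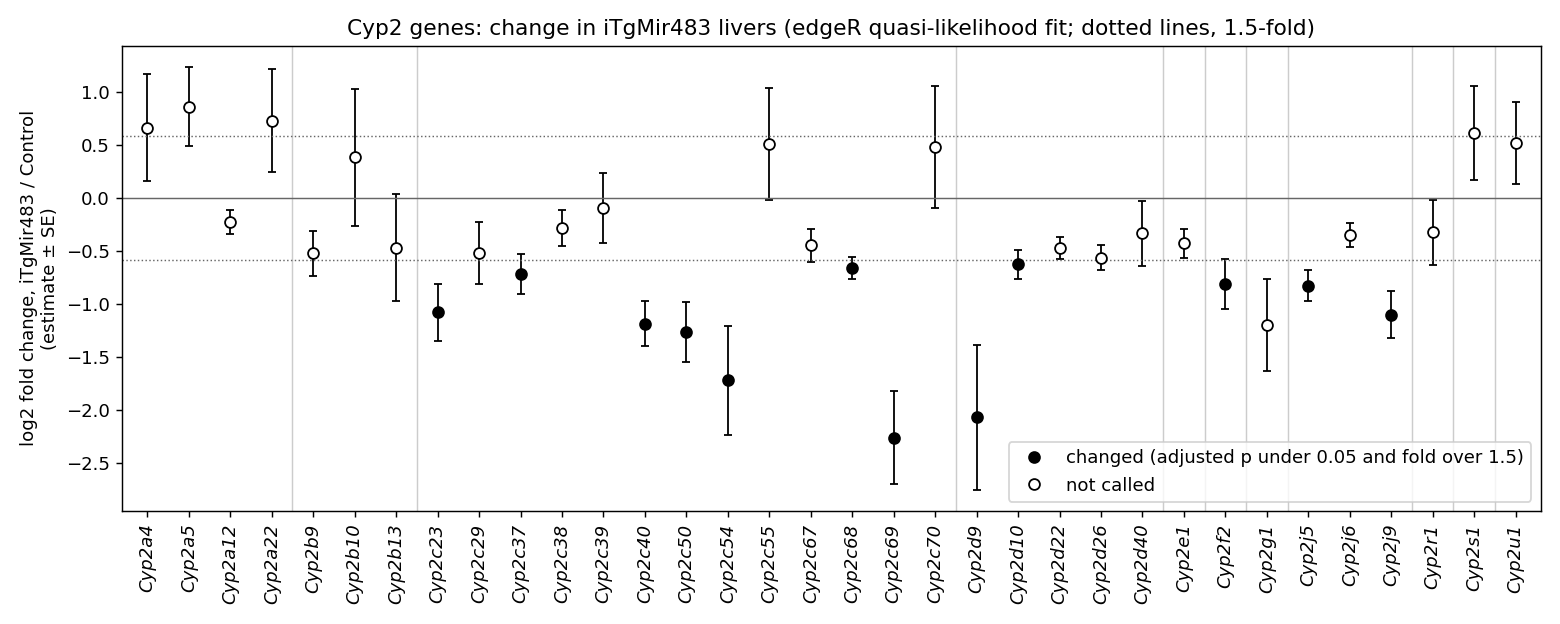
Log2 fold change (iTgMir483 over Control) of the 34 tested members with its standard error, ordered by subfamily; filled points were called changed and dotted lines mark 1.5-fold. The 12 filled points all lie below 0, from -0.62 for Cyp2d10 to -2.26 for Cyp2c69, and 7 of them are Cyp2c genes.

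Together the 48 members summed to 20303 ± 785 CPM in controls and 15133 ± 1934 CPM in iTgMir483 livers (SD, n = 6), 25.5% less, with all 6 iTgMir483 livers below every control. Without the libraries numbered 1 the sums were 20396 ± 840 and 14618 ± 1638 CPM (SD, n = 5). The mean sums of subfamilies 2b, 2c, 2d, 2e, 2f and 2j were lower and that of 2a higher, with 2b at 892 ± 245 and 641 ± 184 CPM (SD, n = 6), 28.2% lower, and 0 of 6 iTgMir483 livers below every control. Cyp2e1 held 53.2% of the family's reads in controls and 53.4% in iTgMir483 livers, and the other members together were 25.3% lower. No p is given for sums, since their members were chosen with results known.

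**Figure D3:**
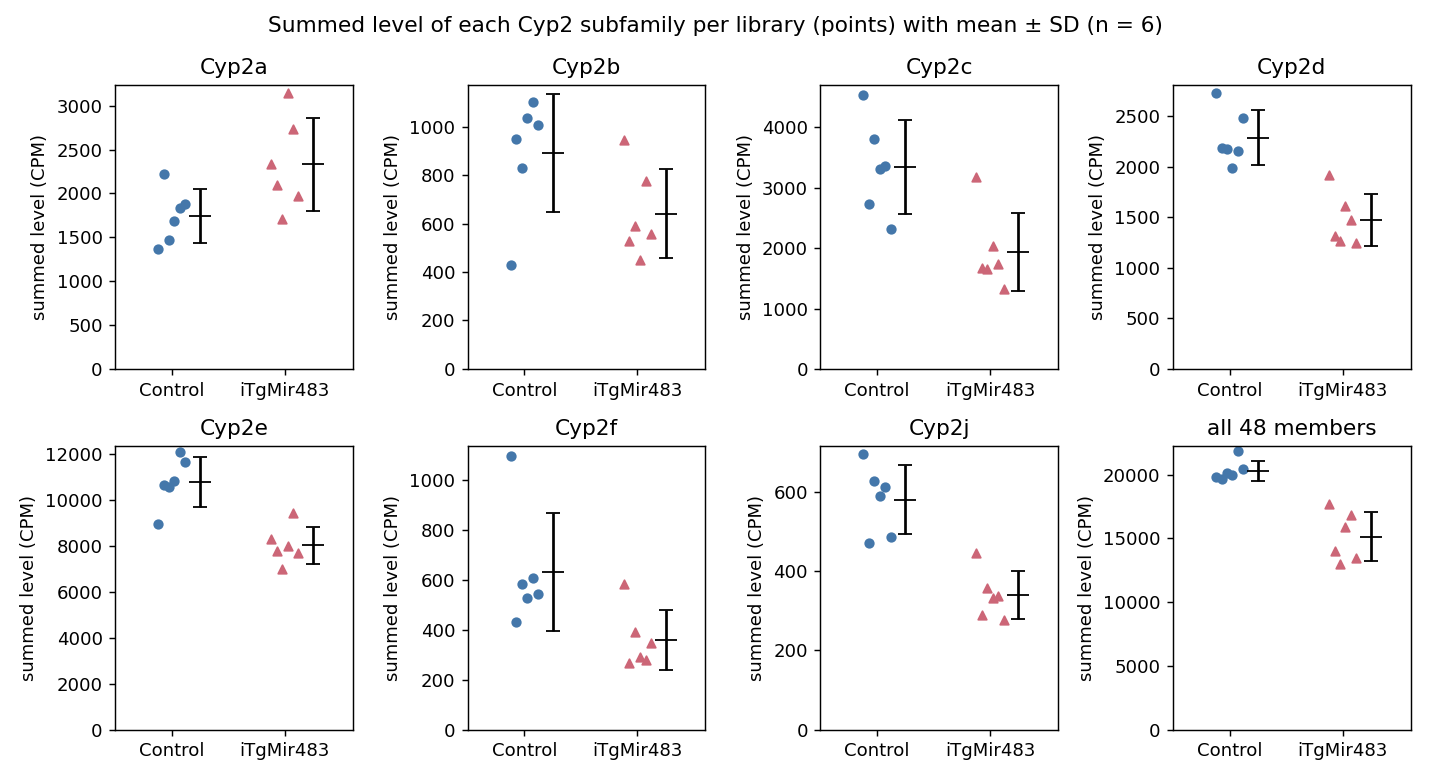
Summed level in CPM of 7 Cyp2 subfamilies and of all 48 members in each library (points), with the mean and SD of 6 livers beside them; every axis starts at 0. The groups do not overlap for Cyp2d, Cyp2j and the whole family, and Cyp2a is the plotted subfamily whose mean is higher in iTgMir483 livers.

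The Cyp2c subfamily, which holds most mouse arachidonic acid epoxygenases and several steroid hydroxylases, had the most changes, with 7 of 13 tested genes lower, 6 without Control 1 and 8 without iTgMir483 1 or both. Its sum was 3348 ± 782 CPM in controls and 1934 ± 648 CPM in iTgMir483 livers (SD, n = 6), 42.2% lower. Of the iTgMir483 livers 5 lay below every control, the exception being the library numbered 1 at 3173 CPM. All but Cyp2c23 lie side by side on chromosome 19, from Cyp2c55 (start 39007019) to Cyp2c70 (end 40187333), and Cyp2c23 lies at 44005022 to 44029208 (GRCm38). The 6 genes lower in the cluster, Cyp2c68, Cyp2c40, Cyp2c69, Cyp2c37, Cyp2c54 and Cyp2c50, follow each other among the members, with Cyp2c67 before them and Cyp2c70 after them not called.

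**Figure D4:**
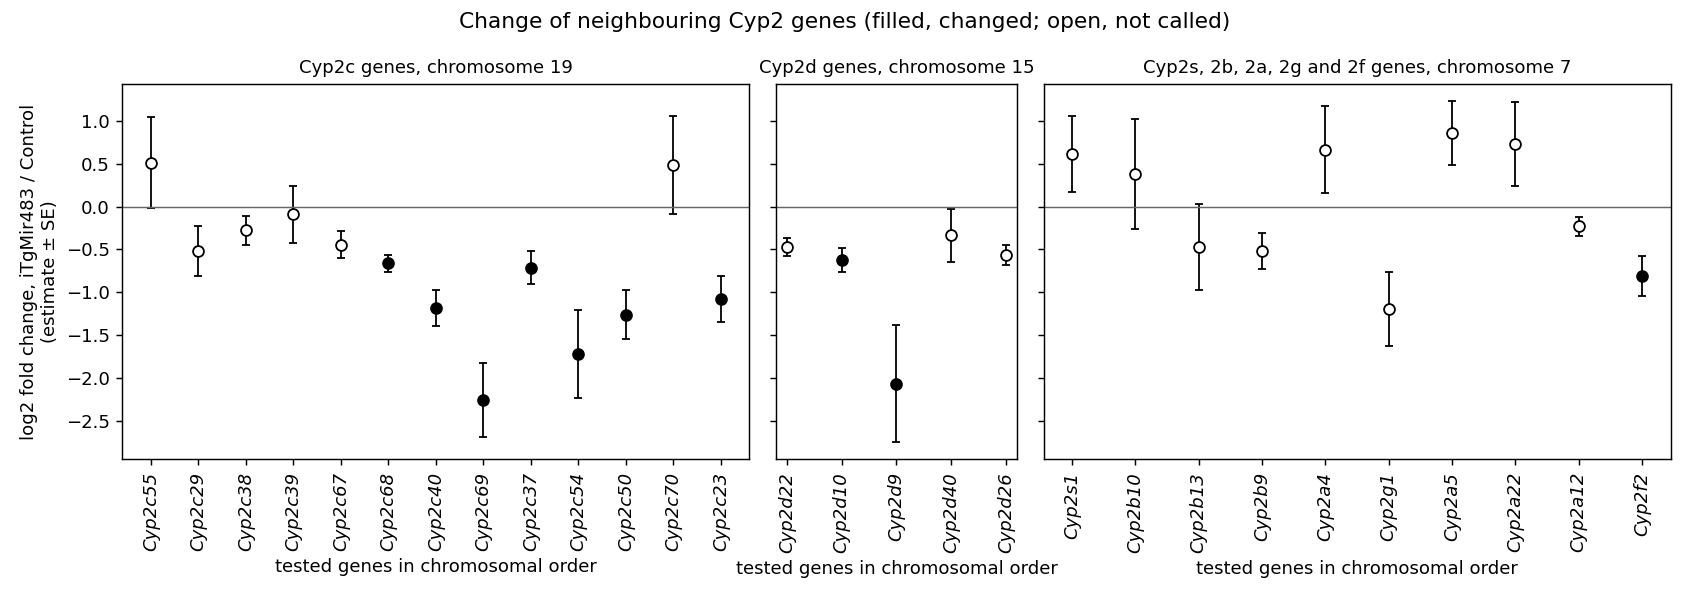
Log2 fold change with standard error of the tested Cyp2c genes (left), Cyp2d genes (middle) and Cyp2s, 2b, 2a, 2g and 2f genes (right) in the order in which they lie on their chromosomes; spacing is not to scale. Filled points, called changed, form a run of 6 neighbours in the Cyp2c cluster, from Cyp2c68 to Cyp2c50, while neighbours in the chromosome 7 cluster lie on both sides of 0.

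Cyp2c40, Cyp2c67, Cyp2c68 and Cyp2c69 are near-identical duplicates. Their coding sequences are 96.5% to 97.7% identical among Cyp2c67, Cyp2c68 and Cyp2c69. Between Cyp2c40 and the others the share is 92.2% to 92.6%, counted over the longer annotated coding sequence of Cyp2c40. Over the 1473 aligned bases, 1439 to 1445 were identical between Cyp2c40 and the others, and 1422 to 1439 among the others. The stretch of 60 bases that encodes the haem-binding site and its start is shown for all 4, from the GENCODE M21 transcripts (GRCm38), to show how little separates the reads of this group, with positions that differ in capitals.
Cyp2c40: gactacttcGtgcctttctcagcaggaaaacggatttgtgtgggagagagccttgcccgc
Cyp2c67: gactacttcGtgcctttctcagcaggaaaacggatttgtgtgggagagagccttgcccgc
Cyp2c68: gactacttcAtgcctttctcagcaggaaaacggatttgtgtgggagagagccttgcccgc
Cyp2c69: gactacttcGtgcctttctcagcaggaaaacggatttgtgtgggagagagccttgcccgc
The share of 50-base words of the longest transcript that occur in no other annotated gene was 27.9% for Cyp2c40, 45.2% for Cyp2c69, 47.2% for Cyp2c67 and 56.7% for Cyp2c68. With 100-base words these shares were 55.9%, 63.7%, 76.3% and 80.2%. How the authors' counting treated reads that fit several of these genes is not stated in the sources used here, so the split among them is uncertain.

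Cyp2c69, a female-biased gene, had the largest fitted decrease of the family with all 12 libraries. Its levels were 64.1 to 542 CPM in controls (median 159) and 27.5 to 76.7 CPM in iTgMir483 livers (median 38.0). The log2 fold change was -2.26 ± 0.44 (SE, edgeR adjusted p = 0.0036), and 5 of 6 iTgMir483 livers lay below every control. The order of the largest decreases rests on single libraries. Without Control 3, where Cyp2c69 was at its highest, its log2 fold change was -1.71 (adjusted p = 0.0043) and that of Cyp2d9 -2.24. Without iTgMir483 1, Cyp2d9 (-2.72) and Cyp2c54 (-2.30) both lay beyond Cyp2c69 (-2.18). Cyp2c69 alone among the members also passed when the null hypothesis was a 1.5-fold change. Cyp2c40, female-biased and known to make 16-hydroxyeicosatetraenoic acid, ran from 80.4 to 158 CPM in controls (median 102) and from 27.3 to 69.6 CPM in iTgMir483 livers (median 44.6). Its groups did not overlap and its log2 fold change was -1.19 ± 0.21 (SE, edgeR adjusted p = 0.0023). Cyp2c68 was 222 to 274 CPM in controls (median 245) and 135 to 189 CPM in iTgMir483 livers (median 153), again without overlap, with a log2 fold change of -0.66 ± 0.10 (SE, edgeR adjusted p = 0.0011). Cyp2c67, the last of the group, was 105 ± 21.5 CPM in controls and 77.1 ± 16.6 CPM in iTgMir483 livers (SD, n = 6) and was not called (log2 fold change -0.44, edgeR adjusted p = 0.0605). The sum of the 4 genes does not depend on how counted reads are split among them. It would lack any reads left out because they fit several genes, and whether such reads were left out is not known. That sum was 668 ± 214 CPM in controls and 323 ± 60.1 CPM in iTgMir483 livers (SD, n = 6), with all 6 below every control.

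The promoters of the same 4 genes are themselves alike (68.3% to 92.3% identical) and share a further sequence. Of the 29 tested members with an entry among the RefSeq promoters (250 bases before to 50 after the start, GRCm38.p6), 5 held CAAAGTCCA, a core letter string of sites for the hepatocyte factor HNF4A, on either strand, namely Cyp2c40, Cyp2c67, Cyp2c68, Cyp2c69 and Cyp2c70. It occurred in 0.475% of all 32851 promoters. The first 4 genes are duplicates of each other, so their matches are not independent. The stretch of 80 bases around it is shown on the strand of the gene for the 4 duplicates, with the string in capitals, because 3 of these genes were lower.
Cyp2c40: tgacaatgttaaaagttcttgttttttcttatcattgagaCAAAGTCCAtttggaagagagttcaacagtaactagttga
Cyp2c67: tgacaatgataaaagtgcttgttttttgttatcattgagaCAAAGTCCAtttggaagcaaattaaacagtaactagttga
Cyp2c68: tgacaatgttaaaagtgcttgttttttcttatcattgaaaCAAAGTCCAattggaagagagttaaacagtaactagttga
Cyp2c69: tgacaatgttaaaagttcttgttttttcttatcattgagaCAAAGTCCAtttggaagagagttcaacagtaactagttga
These stretches lie on the minus strand at chr19:39812820-39812899, chr19:39649128-39649207, chr19:39741139-39741218 and chr19:39886805-39886884. The stretches of Cyp2c40 and Cyp2c69 were identical over 80 bases, and that of Cyp2c67, which was not called, differed from each of the others at 7 bases. Cyp2c70 holds the same string in an otherwise different promoter, with 53 or 54 of 80 bases differing, and was not called. Further strings were counted in the same 29 promoters on both strands. TATAAA was found in 18 of them (62.1%, 13.6% of all promoters) and TTGCNNAA, a string of C/EBP sites, in 10 (34.5%, 10.8% of all). TTCNNNGAA, the core of STAT5 sites, was found in 0 of 29 (8.30% of all). With all 12 libraries, members lower in iTgMir483 livers made up 3 of the 5 with CAAAGTCCA, 5 of the 18 with TATAAA and 4 of the 10 with TTGCNNAA, against 10 of all 29, and no match overlapped that of another string in these promoters. Promoters of other duplicates are also near-copies, such as Cyp2b9 and Cyp2b13 (99.3% identical) and Cyp2a4 and Cyp2a5 (98.0%). None of these counts is therefore a count of independent genes. Hnf4a itself was not called (log2 fold change -0.37, edgeR adjusted p = 0.148).

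Cyp2c37, Cyp2c50 and Cyp2c54 form a second group of duplicates, known for the oxidation of arachidonic acid, with coding sequences 95.1% to 96.1% identical. The same coding stretch is shown for them, since all 3 differ in it, with positions that differ in capitals.
Cyp2c37: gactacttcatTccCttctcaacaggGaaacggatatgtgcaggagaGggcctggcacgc
Cyp2c50: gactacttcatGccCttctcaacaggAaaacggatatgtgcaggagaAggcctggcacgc
Cyp2c54: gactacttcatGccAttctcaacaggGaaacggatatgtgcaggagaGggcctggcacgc
The shares of 50-base words unique to each were 69.9% for Cyp2c37, 83.4% for Cyp2c50 and 74.3% for Cyp2c54. With 100-base words these shares were 95.3%, 91.1% and 92.4%. All 3 were lower in iTgMir483 livers, in the order Cyp2c54, Cyp2c50, Cyp2c37 by size. Cyp2c54 ran from 110 to 472 CPM in controls (median 248) and from 20.4 to 205 CPM in iTgMir483 livers (median 66.9), a log2 fold change of -1.72 ± 0.51 (SE, edgeR adjusted p = 0.0314). This call was lost when any of 6 libraries was left out, namely Control 1, 3 or 5 or iTgMir483 2, 3 or 6, at log2 fold changes from -1.45 to -1.73 and adjusted p from 0.0534 to 0.0594. Cyp2c50 ran from 423 to 869 CPM in controls (median 591) and from 133 to 511 CPM in iTgMir483 livers (median 230), a log2 fold change of -1.26 ± 0.29 (SE, edgeR adjusted p = 0.0081). Cyp2c37, also induced through the constitutive androstane receptor, ran from 444 to 687 CPM in controls (median 594) and from 210 to 489 CPM in iTgMir483 livers (median 388), a log2 fold change of -0.71 ± 0.19 (SE, edgeR adjusted p = 0.0178). For each of the 3 genes 5 of 6 iTgMir483 livers lay below every control, and the exception was the library numbered 1. The sum of the group was 1446 ± 304 CPM in controls and 687 ± 283 CPM in iTgMir483 livers (SD, n = 6), and 1365 ± 257 and 583 ± 139 CPM without the libraries numbered 1 (SD, n = 5).

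Cyp2c23, also named Cyp2c44, is an epoxygenase that shares no 50-base word with another gene, so its counts do not depend on paralogs. It ran from 96.8 to 345 CPM in controls (median 170) and from 55.8 to 135 CPM in iTgMir483 livers (median 83.1). Its log2 fold change was -1.08 ± 0.27 (SE, edgeR adjusted p = 0.0131), with 4 of 6 iTgMir483 livers below every control. Cyp2c29, known to be pericentral and inducible, was 749 ± 284 CPM in controls and 523 ± 274 CPM in iTgMir483 livers (SD, n = 6) and was not called (log2 fold change -0.52, edgeR adjusted p = 0.234). Its iTgMir483 library numbered 1 was at 1074 CPM, far above the other 5, and without that library the log2 fold change was -0.86 (adjusted p = 0.0153). Cyp2c38 was 157 ± 22.5 and 129 ± 38.0 CPM (SD, n = 6, edgeR adjusted p = 0.273). Cyp2c70, which makes the muricholic acids typical of mouse bile and shares no word with another gene, was 114 ± 112 CPM in controls and 159 ± 128 CPM in iTgMir483 livers (SD, n = 6), with a log2 fold change of 0.48 ± 0.57 (SE, edgeR adjusted p = 0.594) with 1 control and 2 iTgMir483 livers above 250 CPM. Without Control 1, its highest control, the log2 fold change was 1.19 (adjusted p = 0.0993), without iTgMir483 4 it was 0.04 (adjusted p = 0.974), and without both libraries numbered 1 it was 0.99 (adjusted p = 0.165). The 2 remaining tested genes, Cyp2c39 and Cyp2c55, were low, at group means of 1.01 to 20.8 CPM, and not called.

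In the Cyp2d subfamily, the relatives of human CYP2D6, 2 of 5 tested genes were lower and the other 3 had log2 fold changes below 0. The count was 1 without Control 1, 4 without iTgMir483 1 and 3 without both. The sum was 2291 ± 270 CPM in controls and 1473 ± 260 CPM in iTgMir483 livers (SD, n = 6), 35.7% lower, without overlap. The tested genes lie on chromosome 15 between 82370527 and 82794294. Cyp2d10 ran from 452 to 611 CPM in controls (median 528) and from 288 to 478 CPM in iTgMir483 livers (median 327), a log2 fold change of -0.62 ± 0.14 (SE, edgeR adjusted p = 0.0065). Its fold change fell just under the threshold, at -0.58 in both cases, when iTgMir483 3 or iTgMir483 6 was left out, and 59.5% of its 50-base words were unique, with 25.9% shared with Cyp2d11. With 100-base words 85.2% were unique, and Cyp2d11 had at most 8 counts in any library. Cyp2d26, the highest Cyp2d gene per kilobase of exon, ran from 1180 to 1290 CPM in controls (median 1258) and from 717 to 1039 CPM in iTgMir483 livers (median 808). Its groups did not overlap, and its log2 fold change of -0.56 ± 0.12 (SE, edgeR adjusted p = 0.0050) missed the fold threshold, which it passed without iTgMir483 1 (-0.63) or iTgMir483 4 (-0.59). Cyp2d22 likewise had no overlap, at 293 ± 36.6 and 211 ± 18.0 CPM (SD, n = 6), with a log2 fold change of -0.47 ± 0.10 (SE, edgeR adjusted p = 0.0067).

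Cyp2d9, the testosterone 16-alpha-hydroxylase that is male-biased in mouse liver, had a large fitted decrease whose size rests on the Control library numbered 1. Controls ran from 61.1 to 649 CPM (median 64.3), with Control 1 the highest and the next at 192 CPM, and iTgMir483 livers from 14.3 to 123 CPM (median 29.5). With all libraries the log2 fold change was -2.07 ± 0.68 (SE, edgeR adjusted p = 0.0482). Without Control 1 it was -1.03 (adjusted p = 0.154). The call was also lost without Control 6 or any of iTgMir483 2, 3, 4, 5 and 6 (adjusted p from 0.0749 to 0.0964) and under limma-voom (adjusted p = 0.0538). Without both libraries numbered 1 it was called, at -1.68 (adjusted p = 0.0064). The remaining tested gene, Cyp2d40, was 35.9 ± 8.17 and 28.5 ± 18.0 CPM (SD, n = 6) and was called only without iTgMir483 1 (log2 fold change -0.71, adjusted p = 0.0454).

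In the Cyp2j subfamily, epoxygenases encoded on chromosome 4 between 96027534 and 96664154, 2 of 3 tested genes were lower. The sum was 581 ± 86.7 CPM in controls and 340 ± 59.9 CPM in iTgMir483 livers (SD, n = 6), 41.5% lower, without overlap. Cyp2j5, the main epoxygenase of this subfamily in liver and kidney, ran from 393 to 600 CPM in controls (median 518) and from 224 to 376 CPM in iTgMir483 livers (median 274), with no overlap and a log2 fold change of -0.83 ± 0.15 (SE, edgeR adjusted p = 0.0022). Cyp2j9 ran from 13.5 to 27.8 CPM in controls (median 18.9) and from 4.68 to 12.3 CPM in iTgMir483 livers (median 8.86). Its groups did not overlap either, and its log2 fold change was -1.10 ± 0.22 (SE, edgeR adjusted p = 0.0046). Cyp2j6 was 65.6 ± 10.8 and 51.6 ± 4.84 CPM (SD, n = 6), with a log2 fold change of -0.34 (edgeR adjusted p = 0.0466), under the fold threshold, and the adjusted p was 0.0552 to 0.0985 without any of Control 1, 3, 4, 5 and 6 or iTgMir483 2, 3, 4, 5 and 6. At least 99.6% of the 50-base words of all 3 genes were unique, so their counts depend little on paralogs.

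Cyp2e1, which oxidizes ethanol and paracetamol around the central vein, was the most abundant member per kilobase of exon, where its mean was 5007 CPM in controls and 3727 CPM in iTgMir483 livers. The next member per kilobase was Cyp2d26 in controls (693 CPM per kilobase) and Cyp2a5 in iTgMir483 livers (471 CPM per kilobase), the latter close to Cyp2d26 (469 CPM per kilobase). Cyp2e1 ran from 8958 to 12124 CPM in controls (median 10750) and from 7024 to 9454 CPM in iTgMir483 livers (median 7900). With a log2 fold change of -0.43 ± 0.13 (SE, edgeR adjusted p = 0.0404) it did not reach the fold threshold, and 5 of 6 iTgMir483 livers lay below every control. The adjusted p was 0.0612 to 0.0966 without any of Control 2 to 6 or iTgMir483 2, 3 and 6, 0.134 with no filter on low counts, and 0.0189 without both libraries numbered 1. Cyp2f2, the periportal enzyme that activates naphthalene and the only tested member with a seed match shown above, ran from 431 to 1096 CPM in controls (median 564) and from 267 to 585 CPM in iTgMir483 livers (median 319). Its log2 fold change was -0.81 ± 0.24 (SE, edgeR adjusted p = 0.0283). The highest library of each group was the one numbered 1. Without Control 1 the log2 fold change was -0.58 (adjusted p = 0.0460), just under the fold threshold, and without iTgMir483 2, 4, 5 or 6 the adjusted p ran from 0.0532 to 0.0590. Without both libraries numbered 1 it was -0.78 (adjusted p = 0.0025).

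Among subfamilies with more than 1 tested gene, Cyp2a alone had a higher summed mean in iTgMir483 livers, at 2332 ± 529 CPM against 1742 ± 308 CPM (SD, n = 6), with 3 of 6 above every control, but 0 of its 4 genes was called. Cyp2a5, the coumarin 7-hydroxylase, ran from 203 to 802 CPM in controls (median 552) and from 394 to 1886 CPM in iTgMir483 livers (median 964), a log2 fold change of 0.86 ± 0.37 (SE, edgeR adjusted p = 0.124). Cyp2a4, its near twin and a steroid hydroxylase with female-biased expression, was 220 ± 159 and 349 ± 153 CPM (SD, n = 6), a log2 fold change of 0.66 (edgeR adjusted p = 0.383). Their coding sequences are 98.4% identical, and 59.2% and 61.2% of the 50-base words of Cyp2a5 and Cyp2a4 were unique. With 100-base words these shares were 85.6% and 88.8%. Summed, the pair was 758 ± 250 CPM in controls and 1326 ± 612 CPM in iTgMir483 livers (SD, n = 6), with 4 of 6 above every control. Cyp2a22 was 206 ± 125 and 341 ± 169 CPM (SD, n = 6, edgeR adjusted p = 0.314). Cyp2a12, which hydroxylates bile acids, was 779 ± 56.2 and 664 ± 89.2 CPM (SD, n = 6, edgeR adjusted p = 0.170). In the 2 of these genes lowest in the Control library numbered 1, Cyp2a4 and Cyp2a22, leaving out both libraries numbered 1 gave log2 fold changes of 0.61 and 0.57, not called.

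None of the 3 tested Cyp2b genes, the classical targets of phenobarbital induction, was called with all 12 libraries, and each was called once Control 1 was left out. Cyp2b9 ran from 339 to 743 CPM in controls (median 612) and from 305 to 670 CPM in iTgMir483 livers (median 394), a log2 fold change of -0.52 ± 0.21 (SE, edgeR adjusted p = 0.102). It was called lower without Control 1 (-0.64, adjusted p = 0.0286), without iTgMir483 1 (-0.71, adjusted p = 0.0148) and without both (-0.83, adjusted p = 0.0014). Cyp2b13, female-specific in mouse liver, had a log2 fold change of -0.47 ± 0.50 (SE, edgeR adjusted p = 0.554) with the Control library at 13.4 CPM and of -0.72 (adjusted p = 0.0481) without it. Cyp2b10, the standard readout of the constitutive androstane receptor, was 40.3 CPM or less in all libraries but Control 1, at 75.3 CPM. Its log2 fold change was 0.38 ± 0.64 (SE, edgeR adjusted p = 0.718) and 1.75 (adjusted p = 0.0058) without Control 1, where the other controls were at 2.93 to 15.6 CPM and the iTgMir483 livers at 16.0 to 40.3 CPM. Without both libraries numbered 1 the Cyp2b sum was 985 ± 102 CPM in controls and 580 ± 122 CPM in iTgMir483 livers (SD, n = 5), with all 5 below every control.

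**Figure D5:**
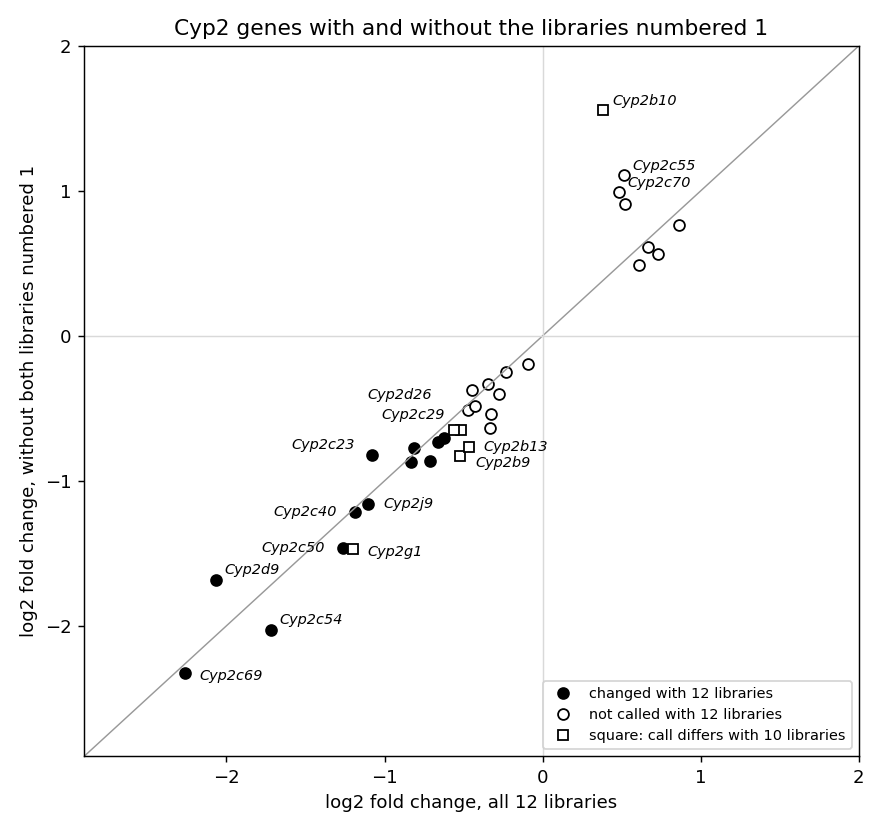
Log2 fold change of the 34 tested members with all 12 libraries (horizontal) and without both libraries numbered 1 (vertical); the diagonal marks equal values, filled points were called with 12 libraries, and squares mark the 6 genes whose call differs with 10. Cyp2b10 moves from 0.38 to 1.56 and becomes the only member called higher, while Cyp2b9, Cyp2b13, Cyp2c29, Cyp2d26 and Cyp2g1 become called lower.

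The remaining subfamilies had few reads in liver. Cyp2r1, the vitamin D 25-hydroxylase, was 4.91 ± 0.994 CPM in controls and 3.94 ± 2.16 CPM in iTgMir483 livers (SD, n = 6, edgeR adjusted p = 0.494). Cyp2u1, a fatty acid hydroxylase, was 3.50 ± 2.41 and 5.06 ± 2.29 CPM (SD, n = 6, edgeR adjusted p = 0.367), and was called higher only without Control 1 (log2 fold change 0.97, adjusted p = 0.0451). Cyp2g1, known from the olfactory mucosa, was 2.64 ± 1.10 and 1.15 ± 0.843 CPM (SD, n = 6), with a log2 fold change of -1.20 ± 0.43 (SE, edgeR adjusted p = 0.0667), and was called lower by DESeq2 (adjusted p = 0.0311) and limma-voom (adjusted p = 0.0396). In edgeR it was also called lower without iTgMir483 1 (-1.56, adjusted p = 0.0189) and without both libraries numbered 1 (-1.47, adjusted p = 0.0305). Cyp2s1 was 0.466 ± 0.290 and 0.751 ± 0.395 CPM (SD, n = 6) and not called. The 14 members below the filter were Cyp2b19, Cyp2b23, Cyp2c65, Cyp2c66, Cyp2d11, Cyp2d12, Cyp2d34, Cyp2j7, Cyp2j8, Cyp2j11, Cyp2j12, Cyp2j13, Cyp2t4 and Cyp2w1. Their highest count in any library was 11, in Cyp2j8, and 12 of them had at most 3 counts in every library, 6 of these 0 throughout, so no difference was detectable in them at this depth.

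Read by role, the lower genes were spread over several uses of the family. The share over all tested members was 12 of 34 (35.3%), and no role was tested against the others. Of 13 genes known to oxidize arachidonic acid, 7 were lower (Cyp2c23, Cyp2c37, Cyp2c40, Cyp2c50, Cyp2c54, Cyp2j5 and Cyp2j9) and 0 higher. Without iTgMir483 1 or both libraries numbered 1, Cyp2c29 joined them, and without Control 1 alone 6 were lower and Cyp2u1 was higher. Of 6 female-biased genes 2 were lower with all libraries (Cyp2c40 and Cyp2c69). Without Control 1 alone or without both libraries numbered 1, 4 of the 6 were lower, with Cyp2b9 and Cyp2b13 added, and Cyp2b10 was higher. Without iTgMir483 1 alone 3 were lower, with Cyp2b9 added. Of the 2 male-biased genes, Cyp2d9 was lower and Cyp2u1 not called, but without Control 1 Cyp2d9 was not called and Cyp2u1 was higher. Of 5 genes induced through the constitutive androstane receptor 1 was lower (Cyp2c37) with all libraries, and without both libraries numbered 1 Cyp2c29 and Cyp2c37 were lower and Cyp2b10 higher. Without Control 1 alone Cyp2c37 was lower and Cyp2b10 higher, and without iTgMir483 1 alone Cyp2c29 and Cyp2c37 were lower. Of 5 pericentral members 2 were lower (Cyp2c37 and Cyp2c50), and Cyp2c29 joined them without iTgMir483 1 or both. Cyp2f2, the periportal member, was lower with all libraries and lost its call without Control 1 or any of iTgMir483 2, 4, 5 and 6. The roles overlap, and shared genes count in each.

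Genes that serve or regulate the family were read from a list of 35. With all libraries 4 of the 35 were called, where 11.1% of all tested genes were. Nr1i3, the constitutive androstane receptor, was the only one of 15 transcription factors called with all libraries, and was lower. Cebpb was also called lower without iTgMir483 4 (log2 fold change -0.80, adjusted p = 0.0045). Levels of Nr1i3 were 811 to 1216 CPM in controls and 285 to 577 CPM in iTgMir483 livers, with no overlap and a log2 fold change of -1.27 ± 0.17 (SE, edgeR adjusted p = 0.00048). Ephx2, which hydrolyses the epoxides made by Cyp2c and Cyp2j enzymes, ran from 935 to 1738 CPM in controls and from 747 to 1028 CPM in iTgMir483 livers, and was lower (log2 fold change -0.73 ± 0.15 SE, edgeR adjusted p = 0.0048), while Ephx1 was not called. Hmox1, which breaks down haem, was higher without overlap, at 17.6 to 27.9 against 30.1 to 89.5 CPM (log2 fold change 1.15 ± 0.24 SE, edgeR adjusted p = 0.0056). The other 9 genes of electron and haem supply were not called with all libraries, Por among them at 947 ± 298 and 770 ± 472 CPM (SD, n = 6). Alas1, the first enzyme of haem synthesis, had a log2 fold change of -0.81 (adjusted p = 0.174) and was called lower without Control 1 (-1.02, adjusted p = 0.0353) and without both libraries numbered 1 (-0.88, adjusted p = 0.0474). Cyb5r3, a reductase of cytochrome b5, was called higher without Control 1 (0.60, adjusted p = 0.0141). Of 8 sex and growth hormone regulators only Cish, a target of STAT5, was called with all libraries. It was higher (log2 fold change 1.07 ± 0.31 SE, edgeR adjusted p = 0.0253), and the call was lost without Control 4, Control 6 or iTgMir483 6, at adjusted p from 0.0516 to 0.0545, and without both libraries numbered 1 (0.90, adjusted p = 0.0683). Bcl6 was called lower by DESeq2 (-0.86, adjusted p = 0.0433) and without iTgMir483 3 (-1.18, adjusted p = 0.0139).

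Since several members are zonated, genes of the lobule outside the family were read beside them. Of all tested genes 2.73% were called lower. Of 9 pericentral genes 1 was lower, Glul (log2 fold change -0.62 ± 0.15 SE, edgeR adjusted p = 0.0097), whose fold change fell under the threshold without Control 5, iTgMir483 2 or iTgMir483 4 (-0.56 to -0.58), and the median of the 9 was 0.17. Cyp1a2, a pericentral P450 outside family 2, was called lower without iTgMir483 1 (-1.25, adjusted p = 0.0368) and without both libraries numbered 1 (-0.78, adjusted p = 0.0488). Of 9 periportal genes 4 were lower, with a median of -0.35 over the 9. Hal was 609 ± 104 CPM in controls and 223 ± 68.7 CPM in iTgMir483 livers (SD, n = 6), a log2 fold change of -1.45 (edgeR adjusted p = 0.00035), Ass1 had a log2 fold change of -1.04 (adjusted p = 0.0027) and Hsd17b6 of -1.16 (adjusted p = 0.0127). Arg1 was at -0.71 (adjusted p = 0.0322), a call lost when any of Control 3, 4, 5 and 6 or iTgMir483 3 and 5 was left out (adjusted p from 0.0525 to 0.0693). Sds was called lower without iTgMir483 4 (-0.87, adjusted p = 0.0195). The list counts do not test one zone against the other.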

How the data were processed

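Liver RNA from 12 mice was sequenced by the authors as paired 50-base reads from a single pool. The deposited values are raw counts per gene, which the authors obtained by aligning to GRCm38 with STAR and counting over Ensembl 100 genes (stranded mRNA libraries per the study's methods). Which strand column was taken and how reads fitting several genes were counted are not given in the sources used here. Groups and replicate numbers came from the sample titles. The table held 55401 genes. GENCODE M21 (GRCm38) gave symbols and positions and named 55141 of the identifiers and not the other 260. Library totals were 12244123 to 30431286 counts. Floors (3 counts) cover counting error only.

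The whole table was filtered with filterByExpr (13205 genes), scaled by TMM and fitted with edgeR 4.0.16 (limma 3.58.1, R 4.3.3), the groups being compared by the quasi-likelihood F-test with no covariate. Changed means over 1.5-fold with an adjusted p under 0.05. Standard errors are the absolute log2 fold change over the root of F. CPM use TMM-scaled library sizes. The fit was tested on simulated counts with the same dispersion for all genes and no outlying library. That test does not cover the spread of members such as Cyp2d9 and Cyp2b10. Word shares, seed matches, identities (Biopython 1.88) and motif counts were computed from the annotated transcripts and the RefSeq promoters, of which 29 tested members had an entry. Alternatives were RLE size factors, other filters, DESeq2 1.42.0, limma-voom, a replicate block, other fold rules, leaving out each library, and leaving out both libraries numbered 1.

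Members, roles and lists were chosen with earlier results of these data known. Values are given for every member that changed or averaged at least 100 CPM, and other genes come from lists of pathway, zonation and marker genes. The hepatocyte marker Tf was not used here. The labels name no pairing between samples with equal numbers. The correlation of their deviations from the group means was 0.490 for number 1 and 0.0146 to 0.194 for the others. Whether the samples numbered 1 have more in common than their number was not tested.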

Additional observations from a re-analysis of the deposited data

Results flagged for a closer look

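In 13 of 78 groups of 6 libraries (member levels and subfamily sums, each group taken by itself), 1 library stood far from the other 5, with a gap to its nearest neighbour above Dixon's 95% critical value for the share of the group's range. For independent and normally distributed values, chance alone would give about 3.9 such groups. Levels in CPM need not be distributed in this way, and the sums hold the same members. The libraries numbered 1 account for 12 of them, and members that are regulated together do not give independent flags. In the Control library numbered 1, the gap took 0.824 of the range for Cyp2b10 (75.3 CPM, others at most 15.6), 0.847 for Cyp2c55 (3.14 CPM, others at most 0.821), 0.751 for Cyp2c70 (336 CPM, others at most 104), 0.777 for Cyp2d9 (649 CPM, others at most 192), 0.732 for Cyp2f2 (1096 CPM, others at most 609) and 0.786 for Cyp2u1 (8.28 CPM, others at most 3.25). For Cyp2b13 the same library lay below the rest (0.729 of the range, 13.4 CPM, others at least 286). In the iTgMir483 library numbered 1, the gap took 0.706 of the range for Cyp2b9 (670 CPM, others at most 412), 0.821 for Cyp2c29 (1074 CPM), 0.709 for Cyp2c50 (511 CPM, others at most 243), 0.656 for Cyp2c54 (205 CPM, others at most 83.9) and 0.735 for Cyp2d9 (123 CPM, others at most 43.0). The flag outside these libraries was Cyp2c69 in Control 3 (0.646 of the range, 542 CPM, others at most 233).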

How the results depend on the processing

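Under RLE size factors, both other filters and leaving out Control 2 or Control 4, every member with a value kept its direction and its call. Cyp2c55, Cyp2g1 and Cyp2s1 have no value with at least 10 counts required in every library. The number of members changed was 12, and 13 by DESeq2, 12 by limma-voom, 16 by adjusted p alone, 8 to 17 when single libraries were left out (8 without iTgMir483 6, 17 without iTgMir483 1) and 18 without both libraries numbered 1. Of these, 8 to 17 and 17 were lower. With a null hypothesis of a 1.5-fold change, 1 member was changed, lower (Cyp2c69), as were 1 pathway gene and 1 zonation gene. The number higher was 0 to 2 when single libraries were left out (2 without Control 1, Cyp2b10 and Cyp2u1) and 1 without both numbered 1. The numbers of pathway and zonation genes changed, 4 and 5 in the full comparison, were 3 to 6 and 3 to 6 when single libraries were left out, with 3 zonation genes without Control 5. With the replicate block 14 members changed, 13 lower and 1 higher, Cyp2a4 (log2 fold change 0.99, adjusted p = 0.0414), Cyp1a2 of the zonation genes became called lower (-0.80, adjusted p = 0.0049), and of the 6 numbers only number 1 matched its own control best. Cyp2c39, at -0.09 and not called, turned to 0.074 under limma-voom and 0.020 with the block, and ran from -0.30 to 0.013 when single libraries were left out. The causes of these shifts were not tested. At these depths members under 1 CPM rest on few counts.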

Other observations

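Outside the naming rule, 22 further loci carry a Cyp2 name, 21 pseudogenes and the coding gene Cyp2ab1, and 10 of them had 0 counts in all libraries. Of the 4 expressed enough to be tested, 0 were changed. The 1 with the most reads, Cyp2d37-ps, was 160 ± 25.3 CPM in controls and 128 ± 33.1 CPM in iTgMir483 livers (SD, n = 6), and Cyp2d38-ps was 42.4 ± 8.50 and 36.8 ± 11.1 CPM (SD, n = 6). Cyp2d36-ps was 7.48 ± 2.60 and 9.32 ± 2.10 CPM (SD, n = 6). Whether reads of coding Cyp2d genes contribute to these loci was not tested.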
